A study of Mus musculus with 28 samples.

Results

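Genes of antigen presentation in mouse skin are described here through the course of a healing wound. The 10 genes are the MHC class II chain genes H2-Aa, H2-Ab1 and H2-Eb1, the loading factor genes H2-DMa and H2-DMb1, the invariant chain gene Cd74, the regulator gene Ciita, the Langerhans cell genes Cd207 and Epcam, and the growth factor receptor gene Flt3. They were taken by name from the deposited gene count table, as 10 of its 29068 genes, and all 10 passed the filter on low counts. The study sequenced RNA from the wound site of mice to follow genes of skin repair over time, in 28 libraries, 4 for each of 7 days. The mice were C57BL/6J, aged 8 weeks and written MLKL+/+ in the study, and were left to heal naturally after a punch excision of back skin down to the fascia. The groups are Day0, Day3, Day5, Day7, Day10, Day12 and Day14 after injury, and no group received any other treatment. The labels name Day0 as the control. The methods of the study list day 1 as the first collection, and its histology caption counts the day of the punch as day 1. On that count Day0 would precede the punch and each later group would lie 1 day nearer to it than its name says, but the sources do not say that the libraries were numbered in this way. Mice of both sexes were used, with the sex of each library not given. The series text speaks of 5 repeats a day, of which 4 a day were analysed here. The methods describe wound samples as the entire wound with its scab and epithelial edge, so on the wound days the cells of the scab, the new epithelium and the bed were read together.

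Class II molecules are pairs of an alpha and a beta chain that carry peptides of engulfed proteins to the surface of dendritic cells, macrophages and B cells, where CD4+ T cells read them. The chains are assembled around the invariant chain, H2-DM exchanges its remnant for a peptide, and the whole set of genes is switched on by CIITA, which has no DNA binding of its own and docks on proteins held at the S, X and Y boxes of their promoters. Langerhans cells are the antigen-presenting cells of the epidermis, known by langerin, the product of Cd207, and by the adhesion molecule of Epcam, which keratinocytes of the hair follicle also make.

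The 5 H2 genes lie in the class II region of chromosome 17. In the GENCODE annotation of GRCm38 these are H2-DMa at chr17:34119541-34139101, H2-DMb1 at chr17:34153072-34160230, H2-Ab1 at chr17:34257689-34269419 and H2-Eb1 at chr17:34305867-34316674 on the plus strand, and H2-Aa at chr17:34282744-34287823 on the minus strand. Epcam is on the same chromosome at chr17:87635979-87651129. Elsewhere lie Ciita at chr16:10480059-10528418, Cd207 at chr6:83671215-83677857 and Flt3 at chr5:147330741-147400489. H2-DMa overlaps Brd2, Ciita overlaps Dexi, and H2-Eb1 and Flt3 overlap the antisense genes Gm20513 and Gm26597, all on the opposite strand. H2-DMa also overlaps CR974462.3 on its own strand and CR974462.4 and Gm20493 on the other, and Cd74 overlaps the miRNA gene Mir5107 on its own strand. The use of strand in counting is not given in the sources used here, so reads of these neighbours cannot be told apart from those of H2-DMa, Ciita, H2-Eb1 and Flt3. H2-DMb1 and H2-Eb1 also have the close copies H2-DMb2 and H2-Eb2, with which reads may have been shared.

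The promoters of 3 of these genes are shown because their counts moved together and because the docking boxes can be read in them. Each sequence is the 150 bases before the start site of the gene in RefSeq (GRCm38.p6), 5′ to 3′ on the strand of the gene, and the capitals mark the letters GNAACT of an X box core followed by GATTGG of a Y box (CCAAT on the other strand). They cover chr17:34287824-34287973 on the minus strand for H2-Aa, chr17:34305717-34305866 on the plus strand for H2-Eb1 and chr17:34153041-34153190 on the plus strand for H2-DMb1.
H2-Aa: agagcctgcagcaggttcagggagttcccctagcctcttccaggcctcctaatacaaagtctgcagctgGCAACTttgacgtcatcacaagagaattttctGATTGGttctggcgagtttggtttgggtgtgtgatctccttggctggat
H2-Eb1: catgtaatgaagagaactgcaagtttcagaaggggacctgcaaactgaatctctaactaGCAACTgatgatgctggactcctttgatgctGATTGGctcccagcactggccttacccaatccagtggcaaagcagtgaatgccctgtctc
H2-DMb1: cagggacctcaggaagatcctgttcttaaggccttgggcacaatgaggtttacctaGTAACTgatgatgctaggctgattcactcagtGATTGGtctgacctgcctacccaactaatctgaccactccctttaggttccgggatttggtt
The first capitals begin 81 bases before the start in H2-Aa, 91 in H2-Eb1 and 94 in H2-DMb1, and the gap between both capital runs is 26, 25 and 26 bases. The letters and the gap were chosen after these sequences were seen. Over all 32851 promoter windows of the table, from 250 bases before to 50 bases after a start, GNAACT followed by GATTGG at a gap of 25 or 26 bases on either strand was found in 14 windows (0.0426%), whereas GATTGG alone was found in 16.1% and GNAACT alone in 42.8%. The windows of H2-DMa, Cd207, Epcam and Flt3 did not hold the pair at these gaps, although 1 of the 2 H2-DMa windows held GATTGG. H2-Ab1, Cd74 and Ciita had no window in the table.

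Between 36706513 and 40655764 counts were assigned to genes in each library, with a median of 39499595. The spread between libraries of a day (biological coefficient of variation) was 26.4% on Day0 and 5.70 to 10.8% on the later days. The Day0 libraries differed most, with replicates 2 and 3 alike and replicates 1 and 4 apart from them. By the median over genes of a chi-square of counts between libraries, replicates 2 and 3 differed by 1.64, replicates 1 and 4 by 3.85, and the others of that day by 7.45 to 9.23. In replicates 2 and 3 the keratin gene Krt5 was at 602 and 652 FPKM and the muscle gene Acta1 at 3271 and 3353 FPKM, against 1206 and 1402 FPKM and 5077 and 5182 FPKM in replicates 1 and 4. Replicates 1 and 4 were not alike in all genes, since the hair gene Krt25 was at 205 and 26.1 FPKM in them and at 58.0 and 52.3 FPKM in replicates 2 and 3. On the later days, replicate 4 of day 5 (4.62 to 4.91 against 1.46 to 1.62 among the others), replicate 4 of day 7 (3.26 to 3.64 against 1.83 to 1.94) and replicate 3 of day 14 (3.36 to 3.53 against 1.69 to 2.34) stood apart by the same measure. FPKM, a count divided by the length of the gene and by the library total, is used for the levels of single genes, and CPM for summed levels of lists. Because of this spread, comparisons with Day0 were also made with replicates 1 and 4 alone and with replicates 2 and 3 alone, and values from these pairs are given beside many of the results that they changed. The labels do not say that the 4 libraries of a day came from separate mice. The p-values therefore speak of these samples and may not reach to differences between mice. In bulk RNA, fewer cells of a type and less RNA per cell cannot be told apart.

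The class II chain genes were highest on Day0, held a middle level from day 3 to day 7, fell to their lowest levels on day 10, rose about 2-fold on day 12 and fell again on day 14. H2-Ab1, the gene of the beta chain of I-A, was at 522, 838, 855 and 604 FPKM in the 4 Day0 libraries and at 523, 488, 494 and 451 FPKM on day 3. It was at 174, 175, 171 and 180 FPKM on day 10, at 397, 349, 378 and 335 FPKM on day 12, and at 172, 184, 204 and 194 FPKM on day 14. The day 12 libraries all lay above those of days 10 and 14, and the ranges of days 10 and 14 overlapped. The days in between averaged 399 ± 35.6 FPKM (SD, n = 4) on day 5 and 444 ± 27.4 FPKM (SD, n = 4) on day 7.

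H2-Aa, which encodes the alpha chain of I-A, was at 674, 1126, 1146 and 747 FPKM on Day0, at 212, 215, 215 and 219 FPKM on day 10, at 525, 455, 484 and 421 FPKM on day 12 and at 204, 217, 255 and 241 FPKM on day 14. H2-Eb1, which encodes the beta chain of I-E, averaged 534 ± 129 FPKM on Day0, 130 ± 2.64 FPKM on day 10, 277 ± 20.4 FPKM on day 12 and 145 ± 16.5 FPKM on day 14 (SD, n = 4 each). Both followed the order of H2-Ab1, with neighbouring ranges that overlapped from day 3 to day 7 and between days 10 and 14. Cd74, whose product is the chaperone of the chains, had the highest level of the 10 genes. It was at 1152, 2015, 2088 and 1333 FPKM on Day0, averaged 393 ± 12.6 FPKM on day 10, 861 ± 77.9 FPKM on day 12 and 384 ± 46.0 FPKM on day 14 (SD, n = 4 each). In the order of its day means, only Day0 from day 7 and day 12 from day 10 were neighbours with ranges apart.

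**Figure D1:**
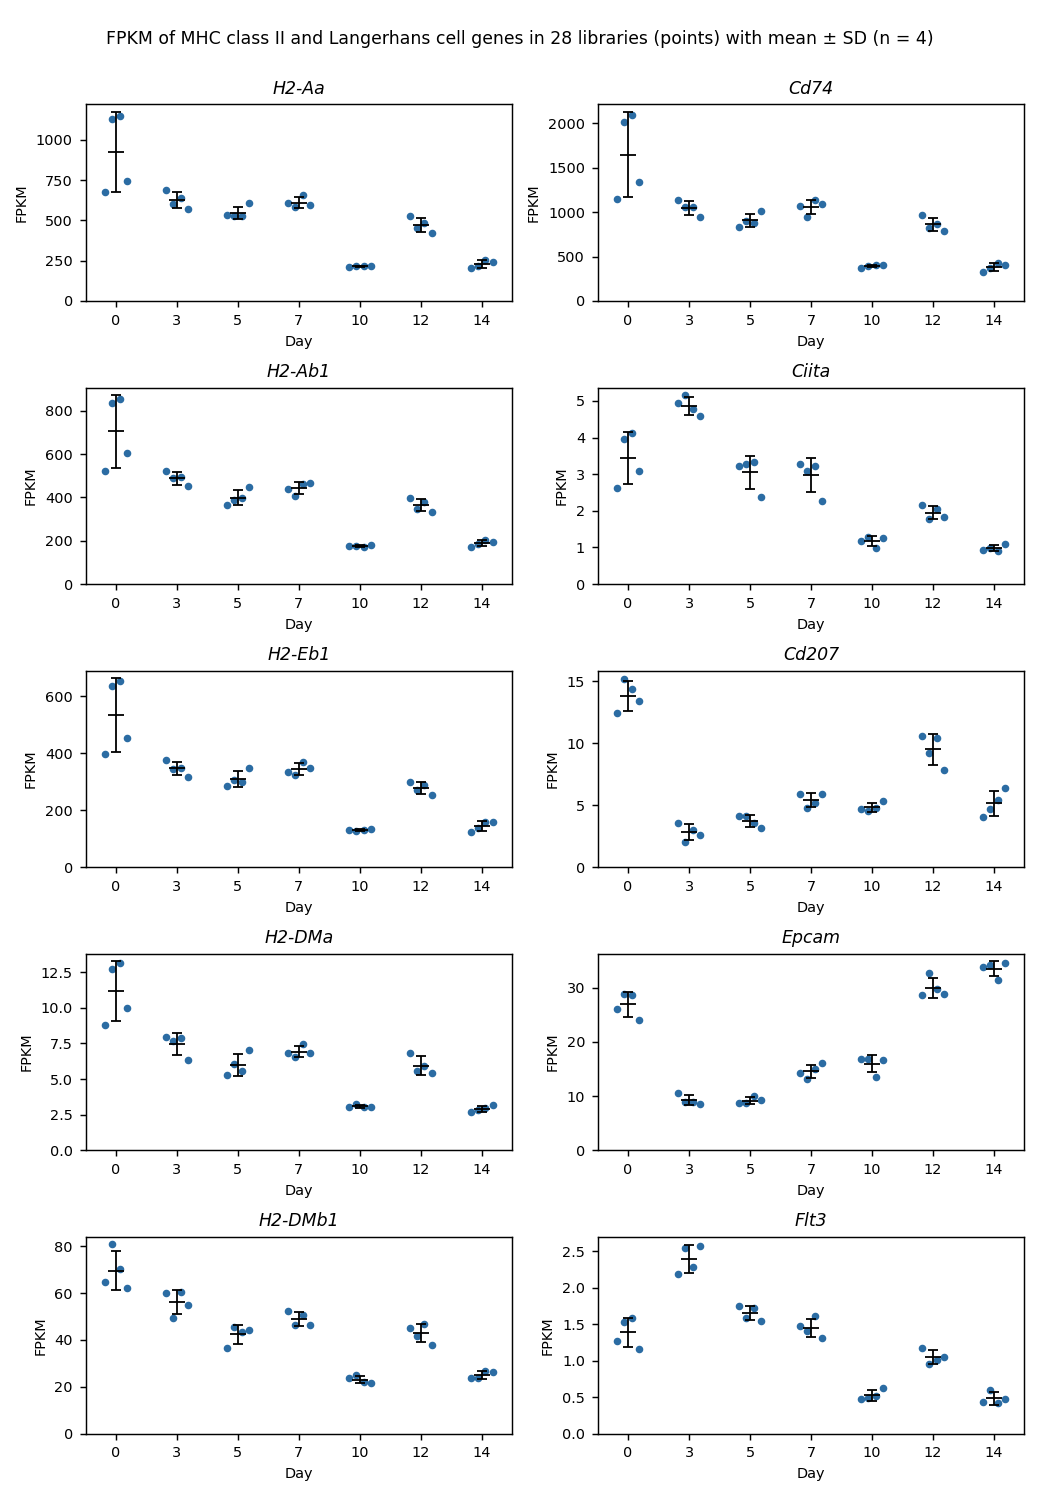
Levels of the 10 genes in FPKM (vertical axes, one scale for each gene) in the 4 libraries of each day (points) with the mean and SD of the day (bars); days are spaced by category. The 5 H2 genes and Cd74 share one shape, with a trough on day 10 and a rise on day 12, Ciita and Flt3 peak on day 3, and Cd207 and Epcam are low on days 3 and 5.

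Calls were made by the quasi-likelihood test of edgeR, with Benjamini-Hochberg adjusted p-values for 18107 genes. The fit gave each gene a spread shared by all days, although the Day0 libraries varied more than those of later days. The standard errors and p-values against Day0 may therefore be too small. Against Day0, 8 of the 10 genes were lower on day 3 and 2 were higher, where 34.8% of all genes tested were lower and 31.8% higher. The counts were 8 lower and 1 higher on day 5 (30.6% lower and 29% higher among all genes) and 8 lower and none higher on day 7 (24.8% lower and 25.6% higher). On day 10 all 10 were lower (26.9% lower and 23.5% higher among all genes). Day 12 had 9 lower and none higher (25.6% lower and 21.7% higher), and day 14 had 9 lower and 1 higher (34.5% lower and 28.2% higher). All 6 comparisons share the Day0 libraries. By the criteria of the study's methods (log2 fold change over 1.5 and P under 0.05), 8 members were lower on day 10 (5.14% of all genes) and 9 on day 14 (8.83%). By the same criteria 1 was lower on day 3 (12.4%), 2 on day 5 (8.31%), none on day 7 (4.74%) and none on day 12 (3.51%).

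On day 10, H2-Aa was 4.45-fold lower than on Day0 (log2 fold change -2.15 ± 0.12 SE, adjusted p = 6.4e-14), H2-Ab1 4.18-fold lower (-2.06 ± 0.11 SE) and Cd74 4.34-fold lower (-2.12 ± 0.13 SE). The differences on day 14 were of like size, with H2-Ab1 4.07-fold and Cd74 4.68-fold lower. On days 3, 5 and 7 they were smaller, at -0.47, -0.78 and -0.67 on the log2 scale for H2-Ab1. The day 3 differences rested on part of the Day0 libraries. With Day0 replicates 1 and 4 alone, a choice made after seeing the data, 4 of the members were called in place of 10, and none of H2-Aa, H2-Ab1, H2-Eb1, H2-DMa, H2-DMb1 and Cd74 was (log2 fold changes -0.23 to -0.075, edgeR adjusted p = 0.058 to 0.49). With Day0 replicates 2 and 3 alone, all 10 were called and H2-Ab1 stood at -0.73. Against replicates 1 and 4 alone H2-Ab1 was at -0.45 on day 5 and -0.35 on day 7, and still called. On days 10, 12 and 14 the class II genes and Cd74 were called with either pair, H2-Ab1 being at -1.74 with replicates 1 and 4 and at -2.32 with replicates 2 and 3 on day 10.

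Comparisons of each day with the sampled day before it do not use the levels of Day0. The Day0 libraries still enter the scaling and the shared spread of the fit. From day 3 to day 5, 5 members fell and none rose (11.4% of all genes fell and 12.9% rose), namely H2-Ab1, H2-DMa, H2-DMb1, Ciita and Flt3. Leaving out Day5 replicate 1 took this count to 3 and ended the calls of H2-Ab1 (adjusted p = 0.11) and H2-DMa (adjusted p = 0.084), and the call of H2-Ab1 was also lost without Day5 replicate 2 (adjusted p = 0.084) and in limma on log2(FPKM + 1) (adjusted p = 0.053). H2-Aa (log2 fold change -0.21 ± 0.12 SE), Cd74 (-0.22 ± 0.13 SE) and H2-Eb1 (-0.18 ± 0.11 SE) were not called from day 3 to day 5. H2-Aa and Cd74 each gained a call under 1 other setting. From day 5 to day 7, only Cd207 and Epcam rose (13.9% of all genes rose) and no member fell (14.6%).

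Between day 7 and day 10, 8 members fell and none rose (18% of all genes fell and 14.3% rose), and 2 of them, H2-Aa and Flt3, met the study's criteria (3.22%). The 8 were the 5 H2 genes, Cd74, Ciita and Flt3, by 1.14 to 1.56 on the log2 scale, with H2-Aa 2.94-fold lower and H2-DMb1 2.21-fold lower. Cd207 (log2 fold change -0.22 ± 0.14 SE, edgeR adjusted p = 0.24) and Epcam (0.080 ± 0.073 SE, adjusted p = 0.44) were not called. Between day 10 and day 12, all 10 members rose (18.7% of all genes rose and 20.7% fell), and in all 10 the 4 libraries of day 12 lay above those of day 10 in FPKM (30.3% of all genes). The rises ran from 1.55-fold for Ciita to 2.06-fold for H2-Aa and Cd74. From day 12 to day 14, 9 members fell and 1 rose (25.3% of all genes fell and 19.9% rose). The 9 had no overlap of the libraries (27.4% of all genes) and fell by 0.76 on the log2 scale for H2-DMb1 to 1.15 for Cd74. Epcam was the exception, at 0.18 ± 0.071 SE (edgeR adjusted p = 0.046), a call that was lost under 12 of the settings tried, among them 7 of the 8 that left out a library (all but Day12 replicate 2). In a joint test among the 6 later days, from the same fit, all 10 members differed, as did 85.1% of all genes tested.

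**Figure D2:**
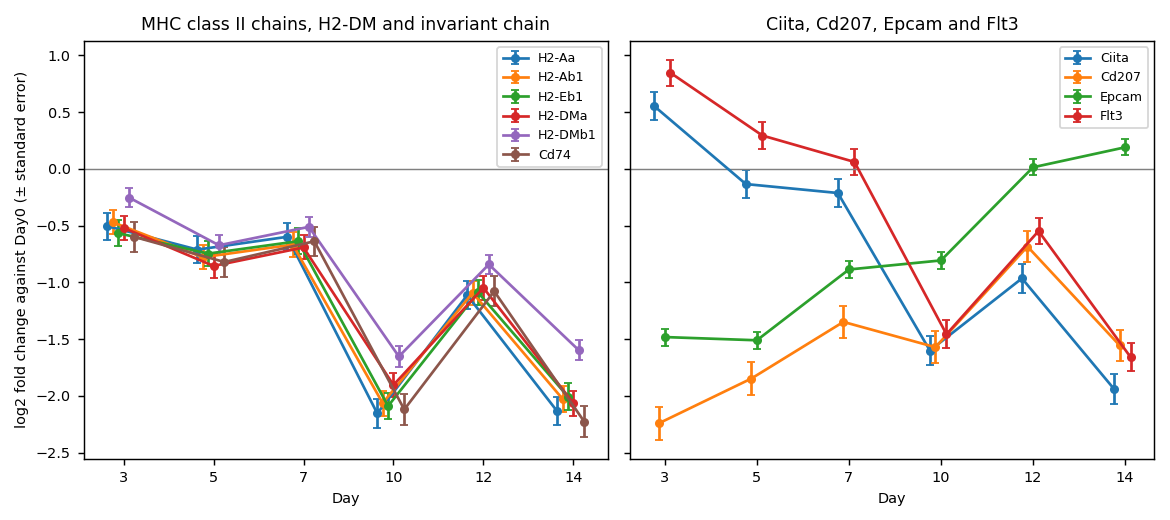
Log2 fold changes of the 10 genes from the edgeR fit (vertical axis) on each later day against Day0 (horizontal axis), with bars of 1 SE and lines joining the days, in one panel for the H2 genes and Cd74 and one for the others. The H2 genes and Cd74 lie between -0.25 and -0.86 on days 3 to 7 and between -1.60 and -2.23 on days 10 and 14, Ciita and Flt3 are above 0 on day 3, and Epcam returns to about 0 on day 12.

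H2-DM is the pair that edits the peptides held by class II, and both of its genes took the course of the chains. H2-DMa was at 8.79, 12.7, 13.1 and 9.99 FPKM on Day0, averaged 3.09 ± 0.11 FPKM on day 10, 5.95 ± 0.64 FPKM on day 12 and 2.91 ± 0.22 FPKM on day 14 (SD, n = 4 each). Its FPKM is low for its counts (975 to 1068 on day 10) because the deposited values divide it by a length of 8325 bases, against 1284 bases for H2-DMb1. H2-DMb1 was at 64.7, 81.0, 70.3 and 62.1 FPKM on Day0 and averaged 23.0 ± 1.57 FPKM on day 10, 42.9 ± 3.95 FPKM on day 12 and 25.1 ± 1.68 FPKM on day 14 (SD, n = 4 each).

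Against Day0, H2-DMb1 fell by 1.65 on the log2 scale on day 10 and by 1.60 on day 14. On day 3 it was at -0.25 ± 0.086 SE (edgeR adjusted p = 0.012), and that call was lost without Day0 replicate 2 (adjusted p = 0.081), Day3 replicate 2 (adjusted p = 0.16) or Day3 replicate 4 (adjusted p = 0.074).

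Ciita, the master regulator of the class II genes, did not take their course on day 3. It was at 2.62, 3.97, 4.11 and 3.07 FPKM on Day0 and at 4.93, 5.15, 4.78 and 4.60 FPKM on day 3, where each library lay above all of Day0. The rise was 1.47-fold (log2 fold change 0.56 ± 0.12 SE, edgeR adjusted p = 0.00028). Ciita was at 3.22, 3.27, 3.33 and 2.38 FPKM on day 5 and at 3.28, 3.10, 3.23 and 2.28 FPKM on day 7, the replicate numbered 4 being the low one on both days, a library that stood apart over all genes on each. Without it Ciita was at -0.037 on day 5 and -0.10 on day 7 against Day0 on the log2 scale.

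Those days did not differ from Day0 by the test (log2 fold change -0.13 ± 0.12 SE and -0.21 ± 0.12 SE, edgeR adjusted p = 0.36 and 0.16). Their sign turned with Day0 replicates 1 and 4 alone, to 0.15 on day 5 and 0.056 on day 7. With Day0 replicates 2 and 3 alone, Ciita was called lower on both (-0.36 and -0.44), and on day 7 also without Day0 replicate 1 (adjusted p = 0.024). From day 10 on, Ciita was lower with the class II genes, at 1.18 ± 0.13 FPKM on day 10, 1.95 ± 0.18 FPKM on day 12 and 0.98 ± 0.081 FPKM on day 14 (SD, n = 4 each). It was 3.03-fold lower than Day0 on day 10 and 3.83-fold lower on day 14.

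Cd207, the langerin gene, had the largest fall of the 10 on day 3. It was at 12.4, 15.2, 14.4 and 13.4 FPKM on Day0 and at 3.61, 2.08, 3.02 and 2.58 FPKM on day 3, with no overlap. That was a 4.72-fold fall (log2 fold change -2.24 ± 0.14 SE, edgeR adjusted p = 1.4e-13), and it was called with either Day0 pair alone. Cd207 then averaged 3.74 ± 0.48 FPKM on day 5, 5.46 ± 0.57 FPKM on day 7 and 4.84 ± 0.37 FPKM on day 10 (SD, n = 4 each). It reached 10.6, 9.21, 10.4 and 7.88 FPKM on day 12 and was back at 4.09, 4.73, 5.41 and 6.38 FPKM on day 14. The day 12 libraries lay below all Day0 libraries and above all of the other later days.

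By the edgeR test Cd207 was 1.61-fold below Day0 on day 12 (log2 fold change -0.68 ± 0.13 SE, adjusted p = 0.00014) and 2.94-fold below it on day 14. It rose 1.41-fold from day 5 to day 7 (adjusted p = 0.0084) and 1.85-fold from day 10 to day 12 (adjusted p = 8.2e-06). Its change from day 3 to day 5 (0.39 ± 0.15 SE, adjusted p = 0.051) was called under 7 of the other settings, among them DESeq2 (adjusted p = 0.041) and leaving out Day3 replicate 1 (adjusted p = 0.019) or Day5 replicate 4 (adjusted p = 0.029).

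Epcam fell on day 3 as Cd207 did and then parted from it. It was at 26.0, 28.9, 28.7 and 24.0 FPKM on Day0, averaged 9.28 ± 0.93 FPKM on day 3 and 9.19 ± 0.58 FPKM on day 5, and 14.6 ± 1.23 FPKM on day 7 and 16.0 ± 1.61 FPKM on day 10 (SD, n = 4 each). It was at 28.7, 32.7, 29.8 and 28.9 FPKM on day 12 and at 33.8, 34.2, 31.5 and 34.6 FPKM on day 14. The day 12 libraries overlapped those of Day0, and the day 14 libraries all lay above Day0.

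Against Day0, Epcam was 2.79-fold lower on day 3 (log2 fold change -1.48 ± 0.074 SE, edgeR adjusted p = 6.8e-16) and was not called on day 12 (0.013 ± 0.071 SE, adjusted p = 0.90). On day 14 it was 1.14-fold higher (0.19 ± 0.071 SE, adjusted p = 0.023), and this call was lost with Day0 replicates 2 and 3 alone (adjusted p = 0.30). Marker genes of the hair follicle were read beside Epcam. Their summed level over the 10 genes listed was 294 to 2219 CPM (counts scaled by library total) on Day0, was 14.5 to 20.4 on day 3, reached 1307 to 1786 on day 7 and stood at 323 to 363 on day 10. It reached 5257 to 6848 on day 12, and 5053 to 6600 on day 14. The list and Epcam were both low on day 3 and both high on days 12 and 14, but from day 7 to day 10, a step in which Epcam was not called, 5 genes of the list fell, 2 (Msx2 and Lhx2) rose and 3 were not called. The list's part in the Epcam values was not tested. The same list stayed high on day 14, when Cd207 and the class II genes fell.

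Flt3, the receptor for the growth factor that dendritic cells and their precursors need, was the lowest of the 10 in FPKM and rose on day 3. It was at 1.27, 1.53, 1.59 and 1.16 FPKM on Day0 and at 2.19, 2.54, 2.29 and 2.57 FPKM on day 3, above all of Day0. The rise was 1.80-fold (log2 fold change 0.85 ± 0.11 SE, edgeR adjusted p = 2.7e-07). Flt3 was at 0.47, 0.49, 0.51 and 0.63 FPKM on day 10, averaged 1.05 ± 0.091 FPKM on day 12 and was at 0.43, 0.60, 0.42 and 0.47 FPKM on day 14, between 103 and 155 counts in each library of days 10 and 14.

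On day 5 it was 1.23-fold higher than on Day0 (edgeR adjusted p = 0.030), a call lost under 9 of the settings tried. These included library totals as the scaling (adjusted p = 0.063), Day0 replicates 2 and 3 alone (0.38) and leaving out Day0 replicate 1 (0.065) or 4 (0.098) or Day5 replicate 1 (0.075) or 3 (0.055), all adjusted p-values. On day 7 it was at 0.060 ± 0.12 SE (adjusted p = 0.69), with a sign that turned without Day0 replicate 4. On day 10 it was 2.74-fold lower and on day 14 3.16-fold lower.

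Ratios of counts within a library do not depend on how libraries are scaled. Each was set against Day0 in an exact permutation test (two-sided, 4 libraries a side), whose smallest p is 0.029, and 9 ratios on 6 days made 54 tests, of which the smallest adjusted p was 0.048. The ratio of Cd207 to H2-Ab1 was lower than on Day0 on day 3 (log2 difference -1.82, adjusted p = 0.048), day 5 (-1.10) and day 7 (-0.71), and higher on day 10 (0.46, adjusted p = 0.048, with 0.27 against Day0 replicates 1 and 4 alone). On days 12 and 14 it was 0.38 and 0.43 above Day0 with overlapping ranges (adjusted p = 0.081). The ratio of Cd207 to Epcam was lower on all 6 days, by the most on day 14 (-1.76) and by the least on day 5 (-0.34), each at the smallest p the exact test allows.

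Between the genes of the I-A chains, the ratio of H2-Ab1 to H2-Aa differed from Day0 by -0.077 to 0.10 on the log2 scale, and no day passed the exact permutation test (adjusted p = 0.081 to 0.69). Cd74 to H2-Ab1 differed on day 3 (-0.11) and day 14 (-0.19), with -0.048 and -0.12 against Day0 replicates 1 and 4 alone and -0.18 and -0.26 against replicates 2 and 3 alone. Ciita to H2-Ab1 was 1.02 higher on day 3, and it passed too (exact test, adjusted p = 0.048) at day 5 (0.63), day 10 (0.45) and day 12 (0.12, or 0.078 against Day0 replicates 1 and 4 alone), while day 7 (0.43, adjusted p = 0.11) and day 14 (0.084, adjusted p = 0.35) did not pass. Flt3 to H2-Ab1 was higher from day 3 (1.29) to day 12 (0.52). H2-DMb1 to H2-DMa passed on day 14 alone (0.45).

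Ptprc encodes CD45, which all leukocytes carry, and B2m encodes the light chain of class I. H2-Ab1 to Ptprc was lower than on Day0 from day 3 (log2 difference -2.29, exact permutation adjusted p = 0.048) to day 12 (-0.71), while day 14 (-0.70) did not pass (adjusted p = 0.081). H2-Ab1 to B2m was lower on day 3 (-0.64), day 5 (-0.81), day 10 (-1.47), day 12 (-0.65) and day 14 (-1.42), and day 7 (-0.48) did not pass (adjusted p = 0.081). Against Day0 replicates 1 and 4 alone the difference was -0.34 on day 3, -0.51 on day 5 and -0.35 on day 12, and against replicates 2 and 3 alone it was -0.95, -1.11 and -0.96 on these days.

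**Figure D3:**
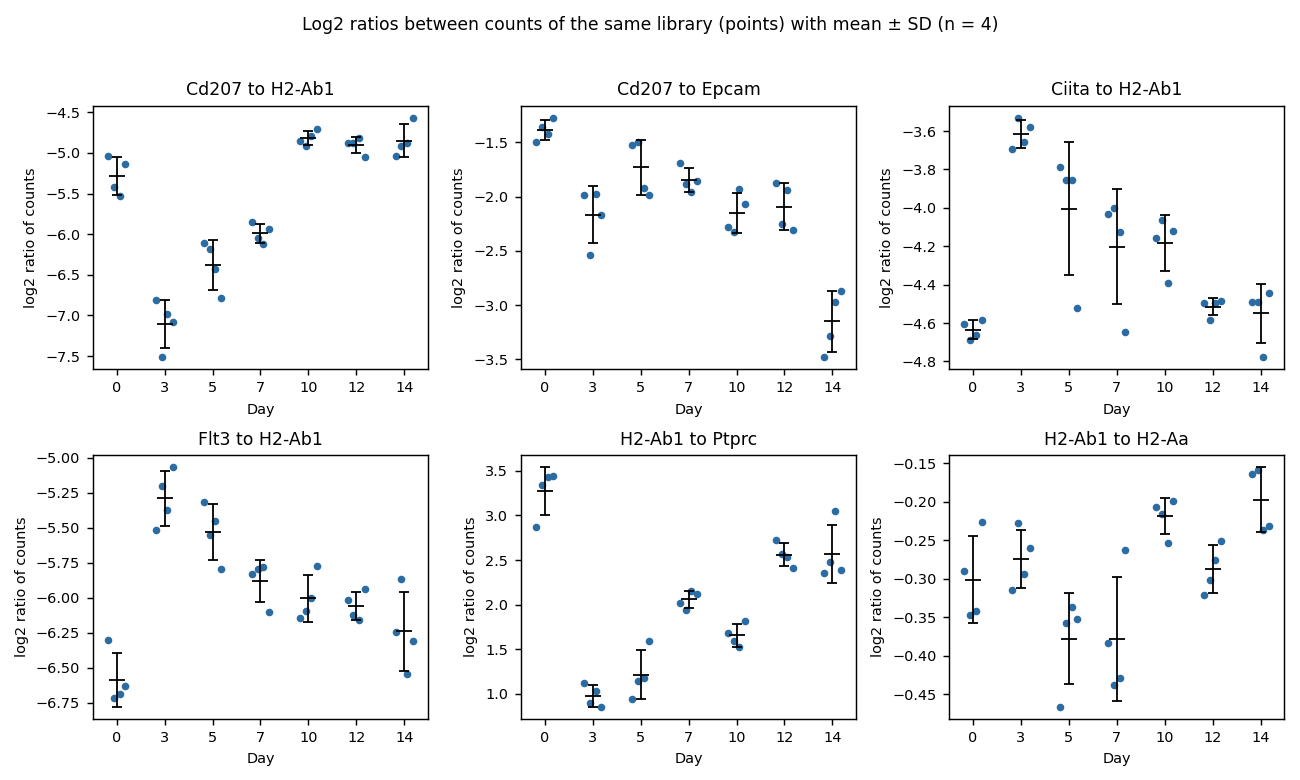
Log2 ratios of counts within each library (vertical axes) by day (horizontal axes), with points for the 4 libraries and bars for the mean and SD of the day; the scales differ between panels. Cd207 to H2-Ab1 is lowest on day 3 and above Day0 on day 10, Ciita to H2-Ab1 is highest on day 3, and H2-Ab1 to H2-Aa stays within 0.10 of Day0 in the mean.

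Across the 28 libraries, which share days and hence are not independent, log2 CPM of the 5 H2 genes and Cd74 correlated at Pearson's r of 0.973 to 0.998 with each other. Ciita correlated with H2-Ab1 at 0.902 and with Flt3 at 0.972. Cd207 correlated with H2-Ab1 at only 0.322 and with Epcam at 0.701, and Epcam with Ciita at -0.563. Of the 14674 genes with a mean of at least 1 CPM, the genes outside the 10 whose pattern was most like H2-Ab1 were Cd209d (r = 0.982), Cd209a (r = 0.975), Rnase6 (r = 0.975), Cd7 (r = 0.972) and Cd209g (r = 0.968). Cd209a, a lectin gene of dermal dendritic cells, averaged 51.5 ± 33.8 FPKM on Day0, 3.61 ± 0.30 FPKM on day 10, 18.1 ± 2.90 FPKM on day 12 and 5.47 ± 1.03 FPKM on day 14 (SD, n = 4 each). The genes most like Cd207 were Il20rb (r = 0.964), Sgpp1 (r = 0.953), Mill2 (r = 0.952), Bbox1 (r = 0.949) and Cobl (r = 0.945). Il20rb, which encodes a receptor chain for cytokines of the IL-20 family, averaged 30.2 ± 1.43 FPKM on Day0, 9.12 ± 1.30 FPKM on day 3, 21.3 ± 1.64 FPKM on day 12 and 13.9 ± 1.26 FPKM on day 14 (SD, n = 4 each).

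Other genes of class II chaperoning and processing were split on day 3. Of 9 tested, 6 rose and 2 fell against Day0, with a median log2 fold change of 1.41 beside -0.51 for the 10 members and -0.033 for all genes tested. Lgmn, a protease of lysosomes, rose most (2.20 ± 0.16 SE), and H2-DMb2, the near copy of H2-DMb1, fell most (-0.88 ± 0.19 SE). The protease genes Ctss, Ctsl and Lgmn, Ifi30, Marchf1 and H2-Eb2 were those that rose, and H2-Ob fell with H2-DMb2 (-0.62 ± 0.20 SE). With Day0 replicates 1 and 4 alone, 6 rose and 0 fell. On day 14, 6 of the 9 fell and none rose (median -0.76, all genes -0.056; with Day0 replicates 2 and 3 alone 7 fell and 1 rose, median -0.36), with H2-Oa, which encodes a chain of the H2-O brake on H2-DM, lowest at -2.36 ± 0.32 SE (9 to 37 counts in the day 14 libraries) and Ctsl, a cathepsin gene, at -0.12 ± 0.083 SE (edgeR adjusted p = 0.23).

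Of 13 genes tested for class II transcription and the interferon gamma input to it, 8 rose and 2 fell on day 3 (median 0.30). With Day0 replicates 1 and 4 alone, 9 rose and 1 fell (median 0.43). With replicates 2 and 3 alone, 7 of 14 tested rose and 3 fell (median 0.18). In the fit of all libraries the list ran from Jak2, a kinase of interferon receptors, at 1.01 ± 0.058 SE to Rfxap, a subunit of the complex on the X box, at -0.38 ± 0.074 SE. On day 14, 4 rose and 5 fell (median 0.032), or 2 and 5 against Day0 replicates 2 and 3 alone (median -0.025), with the receptor gene Ifngr1 lowest at -1.01. Of the class I genes, which serve presentation to CD8+ T cells, 11 of 13 rose and none fell on day 3 (median 0.30), or 10 and 1 against Day0 replicates 1 and 4 alone, with Calr at 0.91 and Tap1 at 0.038 ± 0.14 SE (edgeR adjusted p = 0.82). On day 14, 10 of 13 fell and none rose (median -0.36), Psmb8 at -0.65 being the lowest and Pdia3 at 0.13 (adjusted p = 0.074) the highest. Day0 replicates 1 and 4 alone gave 11 that fell and 2 that rose, and replicates 2 and 3 alone gave 9 and 1.

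Genes listed for the upkeep of Langerhans cells were mixed on day 3, with 8 of 12 higher and 3 lower (median 0.61). Runx3, a transcription factor that these cells need, was at 1.61 ± 0.13 SE, and Il34, the keratinocyte cytokine that maintains them, was at -1.62 ± 0.088 SE. On day 14, 7 of 12 fell and 1 rose (median -0.31), or 6 and 2 against Day0 replicates 1 and 4 alone, with Csf1r, the receptor for IL-34, at -2.13 ± 0.10 SE and Cd1d1 at 1.32 ± 0.11 SE.

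Markers of other cells that carry class II were read in the same libraries. Of 13 genes listed for conventional dendritic cells, 9 were lower and 3 higher on day 3 (median -0.72), or 6 and 5 against Day0 replicates 1 and 4 alone (median -0.32), and 12 were lower and 1 higher on day 14 (median -1.75). The lectin gene Mgl2 was at -2.43 ± 0.24 SE and Wdfy4, which serves cross-presentation, at 0.97 ± 0.11 SE on day 3, and Cd209a was at -3.36 ± 0.30 SE and the integrin gene Itgax at 0.92 ± 0.10 SE on day 14. From day 10 to day 12, when all 10 members rose, 4 of the 13 rose and 4 fell (median 0.33). Cd209a was at 2.24 ± 0.31 SE, Mgl2 at 2.30 ± 0.25 SE and Itgax at -0.90 ± 0.10 SE in that comparison. The summed level of the 13 was 214 to 229 CPM on day 10 and 282 to 321 CPM on day 12, and by day 14 it was 132 to 162 CPM. In Day0 replicates 2 and 3, Mgl2 was at 123 and 118 FPKM and Cd209a at 80.9 and 80.4 FPKM, against 39.5 and 42.7 FPKM and 25.02 and 19.5 FPKM in replicates 1 and 4, so the Day0 libraries with more class II RNA were also those with more of both. The part of dendritic cell numbers in the class II values was not tested.

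All 10 genes of the macrophage list, which includes the general leukocyte gene Ptprc, rose on day 3 (median 1.02), when the class II chain genes did not, from C1qa at 0.62 to Fcgr1 at 2.35. All 10 fell on day 14 (median -1.75), from Cd68 at -0.61 to Mrc1 at -2.51. Between day 7 and day 10, when the class II genes fell, all 10 fell as well (median -0.98), with Ptprc at 21.6 ± 0.42 FPKM on day 7 and 11.3 ± 0.76 FPKM on day 10 (SD, n = 4 each). In the same step 10 of 13 dendritic cell genes fell and 1 rose (median -0.78), 9 of 12 maturation genes fell and none rose (median -0.88), all 6 T cell markers fell (median -0.88), and 4 of 5 B cell markers fell and 1 rose (median -1.83). The B cell genes are near the floor, Ms4a1 having 2 to 22 counts on day 7 and 0 to 3 on day 10, and their summed level overlapped between these days (5.65 to 7.04 CPM and 5.14 to 5.87 CPM). The part of these cell types in the fall of the class II genes was not tested. Between day 10 and day 12, 3 macrophage markers rose and 2 fell (median 0.15), and their summed level was 2710 to 2863 CPM on day 10 and 2604 to 2821 on day 12. Ptprc was at 0.061 ± 0.097 SE in that comparison (edgeR adjusted p = 0.66). From day 12 to day 14 all 10 fell together with the class II genes (median -1.44). B cell markers summed to 3.87 to 7.41 CPM over all libraries. The genes at the ends of that list were Ms4a1 at 1.67 (adjusted p = 0.052) and Blk at -0.073 (adjusted p = 0.78) on day 3, and Blk at 1.15 and Cd79b at -1.42 on day 14. Against Day0 replicates 1 and 4 alone, 4 of the B cell genes in place of 1 rose on day 3, and their median on day 14 was 0.040 in place of -1.08. Of 6 T cell markers, 1 rose and 3 fell on day 3 (median -0.20), from Cd4 at 0.51 to Cd3g at -1.27, and 4 fell on day 14, from Cd8a at -0.18 (adjusted p = 0.64) to Cd4 at -1.61. On day 3, 2 of them rose and 2 fell against Day0 replicates 1 and 4 alone (median 0.12), and 0 rose and 3 fell against replicates 2 and 3 alone.

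Genes of dendritic cell maturation and migration gave 7 of 12 higher and 1 lower on day 3 (median 0.59), with the costimulatory gene Cd80 at 2.60 ± 0.18 SE and Ccl21a, the chemokine of lymph vessels, at -1.15 ± 0.16 SE. On day 14, 9 fell and 1 rose (median -0.90), Fscn1 being at 0.98 and Ccl21a at -2.07. From day 10 to day 12 Ccl21a was at 1.55 ± 0.16 SE and Ccr7, its receptor, at -0.49 ± 0.19 SE.

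Tissue content differed between days as well. All 6 muscle markers were lower than on Day0 on each later day, with a median between -2.42 on day 3 and -1.40 on day 10. Against Day0 replicates 2 and 3 alone, 5 were lower and 1 higher on day 10 and 5 were lower on day 12. Of 10 keratinocyte markers, 6 fell and 2 rose on day 3 (median -0.84), from Krt16 at 4.46 to Krt15 at -3.46, and 3 rose and 3 fell on day 14 (median 0.033), from Krt17 at 1.77 to Krt10 at -2.03. On day 3, 3 rose and 6 fell against Day0 replicates 1 and 4 alone (median -1.06), and 3 rose and 5 fell against replicates 2 and 3 alone (median -0.42). On day 14, 2 rose and 6 fell against Day0 replicates 1 and 4 alone (median -0.36), and 6 rose and 3 fell against replicates 2 and 3 alone (median 0.73). The hair follicle list was lower in all 10 genes on day 3 (median -6.42) and higher in all 10 on day 12 (median 2.67) and day 14 (median 2.40). Of 6 adipocyte markers, 2 rose and 2 fell on day 3 (median -0.057), or 3 and 2 against Day0 replicates 1 and 4 alone (median 0.097), and 4 rose and none fell on day 14, with Lep at -1.25 the lowest on day 3 and Plin1 at 0.093 (edgeR adjusted p = 0.47) the lowest on day 14. From day 10 to day 12, 5 of the 6 fell and 1 rose, and from day 12 to day 14 all 6 rose, the opposite direction to most of the 10 genes in these steps. Ucp1, the uncoupling protein gene of brown fat, was the highest on both named days (log2 fold change 10.32 ± 0.29 SE on day 3 and 9.55 ± 0.28 SE on day 14). It averaged 0.42 ± 0.31 FPKM on Day0, 516 ± 63.5 FPKM on day 3, 1054 ± 66.4 FPKM on day 5, 333 ± 21.1 FPKM on day 7, 187 ± 6.81 FPKM on day 10, 4.93 ± 1.54 FPKM on day 12 and 345 ± 57.8 FPKM on day 14 (SD, n = 4 each). Ucp1 was thus low on Day0 and day 12, and the class II chain genes and Cd207 were higher on day 12 than on days 10 and 14. The part of these tissue differences in the values of the 10 genes was not tested.

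**Figure D4:**
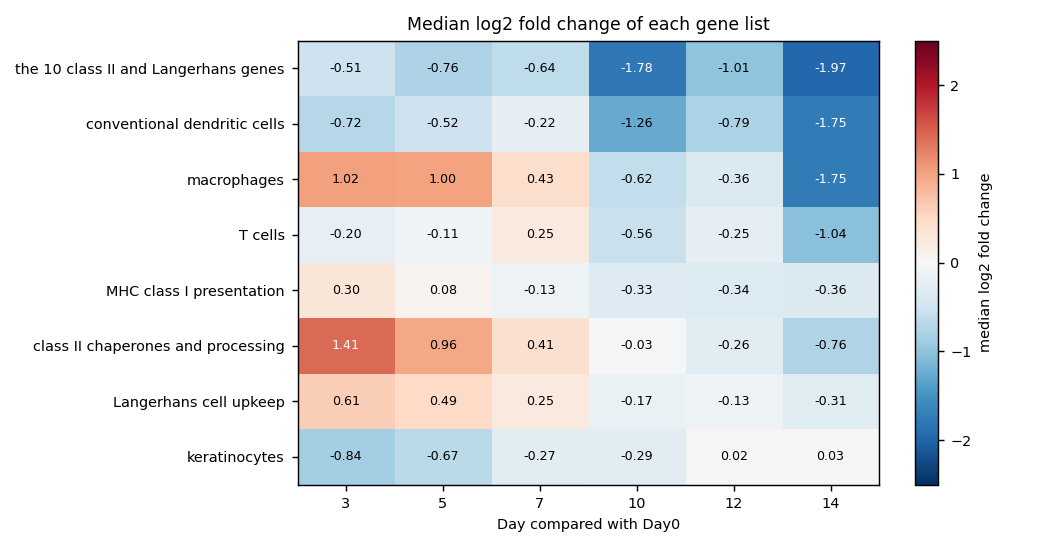
Median log2 fold change against Day0 from the edgeR fit, as coloured and numbered cells, for the 10 genes and 7 lists of related pathways and cells (rows) on each later day (columns). The 10 genes lie at -0.51 on day 3, where the macrophage list is at 1.02, and at -1.97 on day 14, where the macrophage and dendritic cell lists are both at -1.75.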

How the data were processed

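RNA of 28 skin samples was extracted with TRIzol, and the VAHTS libraries made from it were sequenced for the study by the company OE Biotech. The authors deposited raw counts per gene symbol and, for the same genes and libraries, FPKM values, in which counts are divided by gene length and library total. Per the submitters' processing notes, fastp, R 3.2.0 and the mm10 genome were used; the aligner, counter, annotation and strand setting are not given in the sources used here. All columns were used, each sample's group and number coming from its title. Total counts ranged from 36706513 to 40655764.

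Counts were tested in R 4.3.3 with edgeR 4.0.16 (TMM, filterByExpr, glmQLFit, glmQLFTest, two-sided tests), with all 28 libraries in 1 fit with 7 groups, 21 residual degrees of freedom and no covariates. The filter kept 18107 genes, for which Benjamini-Hochberg adjusted p-values were computed, with calls at an adjusted p under 0.05. The study used DESeq2, which was an alternative here (1.42.0). Other alternatives were DESeq2 size factors, library totals, no filter, the 8 libraries of the days compared, replicate blocks, limma 3.58.1 on log2(FPKM + 1) and log2(FPKM + 0.1), a mean FPKM of at least 1, the study's criteria, each library left out and, chosen after seeing the data, each Day0 pair alone. Log2 ratios had 0.5 added to each count (1 as an alternative).

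On simulated counts for day 3 against Day0 (17767 genes tested), edgeR recovered 96 of 100 genes changed 2-fold and 100 of 100 changed 4-fold, with 6 false calls. The simulation gave a gene the same spread on all days and changed 200 genes. In the data Day0 varied more, and 34.8% of genes were called lower and 31.8% higher. The false calls of the simulation therefore do not carry over to the real comparison. The 10 genes and all lists were chosen with earlier results of these data known. Named from each list were the genes with the largest and smallest log2 fold change on day 3 and day 14 (1 of these is not reported here), and in addition the 5 genes most correlated with H2-Ab1 and with Cd207, Ptprc and B2m. Mgl2, Itgax, Ccl21a and Ccr7 from day 10 to day 12, Ucp1 on other days, the risen and fallen genes counted by name beyond that rule and the Day0 values of Krt5, Krt25, Acta1, Mgl2 and Cd209a were picked after their values were seen. Of the listed genes, Trac, Trdc and March1 had no row under these names. Positions are from GENCODE vM21 (GRCm38) and promoters from RefSeq (GRCm38.p6).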

Additional observations from a re-analysis of the deposited data

Results flagged for a closer look

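In each of 70 groups of 4 libraries (10 genes on 7 days), the highest and lowest log2 CPM was compared with the others by Dixon's ratio. A library stood apart in 5 groups, where chance alone flags about 1 in 20. Ciita was low in Day5 replicate 4 (4.64, the others 5.05 to 5.09) and in Day7 replicate 4 (4.49, the others 4.97 to 5.03). H2-Aa was high in Day5 replicate 4 (9.51, the others 9.28 to 9.30). Epcam was high in Day3 replicate 1 (4.53, the others 4.26 to 4.30) and low in Day10 replicate 3 (4.83, the others 5.08 to 5.09). Day5 replicate 4 and Day7 replicate 4, which hold 3 of the 5, also stood apart from the other libraries of their day over all genes.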

How the results depend on the processing

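Of the fold changes and calls of the 10 members recomputed with 1 library left out, 855 kept their direction and side of the threshold, 17 lost a call, 3 gained one and 5 changed sign; under the other settings the numbers were 1079, 18, 9 and 4. All 486 ratios recomputed with a library left out or another pseudocount, and all 108 with a Day0 pair alone (chosen after seeing the data), stayed within 1 SD of the libraries, the wider of both days. Dropping 1 or keeping 2 of 4 libraries cannot move a mean by 1 SD, so this does not show that the ratios are robust. The larger changes with a Day0 pair are given with the ratios above. Members called on day 3 fell from 10 to 4 with Day0 replicates 1 and 4 alone. The study's criteria called 1 member at day 3, 2 at day 5 and 0 at both day 7 and day 12 against Day0, 2 from day 7 to day 10, and 0 from day 3 to 5, day 5 to 7, day 10 to 12 and day 12 to 14, where a fold limit is added by construction. With a library left out, the members called from day 3 to day 5 ranged from 3 to 6 around 5.

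Signs turned only in values that were not called. Ciita against Day0 was 0.15 on day 5 and 0.056 on day 7 with Day0 replicates 1 and 4 alone. Flt3 on day 7 was -0.10 with Day0 replicates 2 and 3 alone and -0.015 without Day0 replicate 4 (range with a library left out -0.015 to 0.13). Epcam on day 12 was -0.079 with Day0 replicates 2 and 3 alone, -0.021 without Day0 replicate 4 and -0.025 without Day12 replicate 2 (range -0.025 to 0.055). Epcam from day 3 to day 5 was 0.0017 without Day3 replicate 1 (range -0.10 to 0.0017), and Ciita from day 5 to day 7 was 0.020 without Day7 replicate 4 (range -0.17 to 0.020). The cause was not tested.

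Library totals in place of TMM moved the median of all genes by 0.14 on day 12 and 0.13 on day 14 against Day0, and no called direction of a member turned. Replicate numbers do not pair the samples: over 84 pairs with the same number, deviations from the day means correlated at -0.076 to 0.18, 1 pair was over 0.1, and 8 of 28 libraries were nearest to their own number. With a replicate block the members called from day 12 to day 14 were 9 in place of 10 (Epcam, adjusted p = 0.060), and all other counts of members were the same.

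Among the 10 genes, Flt3 had 103 to 145 counts on day 14 and 113 to 155 on day 10, and some listed genes had fewer, such as Ms4a1 with 0 to 3 on day 10.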
